A study of Homo sapiens with 35 samples.

Results

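Of the 59428 gene rows of the deposited read counts, 9 were followed here: the kinases JAK1, JAK2 and TYK2, the transcription factors STAT2, IRF9 and IRF1, and the feedback inhibitors SOCS1, SOCS3 and USP18. They were taken by row name, and each name had a row in both deposited tables. The counts come from 35 poly(A) RNA-seq libraries in 13 groups of 4 human acute myeloid leukaemia cell lines, U937, THP-1, MOLM-13 and OCI-AML-3. Control libraries carry the label sgControl (a control guide RNA), and the others are labelled SUV39H1 SKO (single knockout) or SUV39H1/2 DKO (double knockout). SUV39H1 and SUV39H2 are histone methyltransferases that place H3K9me3, a heterochromatin mark, and the series title asks whether they restrain an immune response in this leukaemia. U937 and THP-1 had sgControl, SKO and DKO groups of 3 libraries each, and U937 had the same 3 groups with a treatment named TPA, for which the labels give no dose or time. Groups of 2 libraries each were available for sgControl and SKO in MOLM-13, and for sgControl and DKO in OCI-AML-3. The headers of the untreated DKO libraries name different SUV39H2 guides in U937 and THP-1. Separate cultures are not mentioned for the replicates, so the p-values cover the scatter of these libraries only, and that scatter may be technical. Column headers carry a single clone number in THP-1 sgControl, THP-1 SKO and untreated U937 DKO, so those groups may each be 1 clone. In THP-1 the headers give the DKO libraries another run code than the sgControl and SKO libraries, so the run and the DKO label cannot be told apart. In untreated U937 the sgControl and SKO headers carry a run code and the DKO headers carry none. TPA-treated and untreated U937 libraries were deposited in separate tables, so TPA and the table cannot be told apart either. All MOLM-13 and OCI-AML-3 libraries came with the TPA-treated ones. Between these lines and untreated U937 or THP-1, the line and the table cannot be told apart in the levels.

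Interferons and many cytokines bind receptors that carry Janus kinases. JAK1 and TYK2 serve the type I interferon receptor, and JAK1 and JAK2 the gamma interferon receptor. Activated kinases phosphorylate STAT proteins, and STAT2 joins IRF9 and a further STAT protein to form ISGF3, which binds the interferon-stimulated response element of interferon-stimulated genes. IRF1 is a transcription factor induced through the gamma-activated site and acts on related elements. SOCS1 and SOCS3 bind and restrain the kinases or receptors, and USP18 removes ISG15 from proteins and blocks signalling at the IFNAR2 chain of the type I receptor. All are RNA levels here, and in a bulk library fewer expressing cells and less RNA per cell cannot be told apart.

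The promoters of SOCS1 and IRF1 are shown because each held a match to an element of this pathway. Windows from 250 bases before to 50 bases after annotated start sites (RefSeq, GRCh38.p14) were found for 8 of the 9 genes. They were searched on both strands for the core of the interferon-stimulated response element, read as GAAA, any 2 bases and GAAA, and for TTCNNNGAA, the core of the gamma-activated site. These motifs do not overlap in the windows shown. The first was present in 3.57% and the latter in 7.66% of 35116 windows of 300 bases. SOCS1 held GAAAGAGAAA starting 113 bases before its start site, IRF1 held TTCCCCGAA starting 124 bases before, and IRF9 held TTCTGGGAA starting 63 bases before. The windows of JAK1, JAK2, TYK2, STAT2 and SOCS3 held neither string. For SOCS3 the 2 windows belong to start sites at 78360925 and 78359667. The counted SOCS3 row starts between them, at 78360077, and the bases just before that position were not searched. The 250 bases before the start are given 5′ to 3′ on the gene's strand, with the matches in capitals, for SOCS1 at chr16:11256205-11256454 and IRF1 at chr5:132490774-132491023, both on the reverse strand. The SOCS1 stretch holds no exon of the counted annotation, and the IRF1 stretch holds 4 exonic bases of IRF1.
SOCS1: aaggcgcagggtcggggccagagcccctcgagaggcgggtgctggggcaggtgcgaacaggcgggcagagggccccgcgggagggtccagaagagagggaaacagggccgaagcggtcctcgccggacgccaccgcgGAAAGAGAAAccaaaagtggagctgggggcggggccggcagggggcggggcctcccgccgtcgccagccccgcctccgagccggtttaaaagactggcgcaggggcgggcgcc
IRF1: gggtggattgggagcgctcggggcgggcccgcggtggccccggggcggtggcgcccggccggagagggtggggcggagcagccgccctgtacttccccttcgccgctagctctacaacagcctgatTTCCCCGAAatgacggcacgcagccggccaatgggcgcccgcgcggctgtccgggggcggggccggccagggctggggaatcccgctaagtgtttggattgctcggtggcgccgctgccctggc

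Totals ranged from 31985767 to 61178704 counted reads per library. Levels are given as CPM, read counts relative to the library total, with TMM scaling over all 35 libraries to even out composition. Fold changes come from edgeR fits of each line, and a gene is said to rise or fall where its Benjamini-Hochberg adjusted p over all genes tested is under 0.05. All 9 genes passed the expression filter in every fit. For values of at least 5 CPM, ratios of the printed levels differ from the fitted log2 fold changes by at most 0.11. The SUV39H1 transcript was higher in the libraries labelled knockout in U937 (log2 fold change 0.76 in SKO and 0.32 in DKO) and THP-1 (1.44 and 0.75), and with TPA 0.55 in SKO and -0.71 in DKO. It was lower in MOLM-13 SKO (-1.90) and OCI-AML-3 DKO (-3.35), and SUV39H2 changed by -0.27 to -1.15 in the comparisons other than U937 SKO with TPA, where it was 0.05 (adjusted p = 0.61). RNA levels do not show whether a guide disrupted the protein. Of the myeloid markers, SPI1 had group means of 85.1 to 338 CPM and CD33 of 45.4 to 198 CPM, while CD14 was at most 0.140 CPM in untreated U937 and 0.651 CPM was the highest group mean of CD68. Of T, NK and B lymphoid markers, NKG7 was at 159 CPM and PAX5 at 19 CPM in U937 sgControl. The B-cell marker MS4A1 was at most 0.0201 CPM.

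How reads were counted limits some of the genes. IRF9 (ENSG00000213928, chr14:24161265-24166565, hg38) had only 5 to 129 reads per library. Reads on bases shared between rows were left out in the table that states its counting. Of its 3582 exon bases, 1513 (42.2%) also belong to an overlapping row named only for a genomic clone. In a GENCODE 29 annotation, the full-length coding transcript IRF9-202 has 1725 of 1838 bases (93.9%), and all 1179 coding bases, on exons of that row. Counted that way, the IRF9 row holds little of that transcript, and its part in the low counts was not tested. IRF1 (ENSG00000125347, chr5:132440440-132508719) shares 2805 of 12265 exon bases (22.9%) with the antisense row IRF1-AS1, and counting was without strand in the table that states it. For USP18 (ENSG00000184979, chr22:18150170-18177397), 479 of 2080 windows of 50 bases in its transcripts also occur in the copy USP41, and reads that map to several places were left out where the command is given. Mates were counted singly where the command is given, and the SOCS1 and SOCS3 counts were even numbers in 30 of 35 libraries each, so reads there may not be independent fragments.

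The 9 genes rose together in U937 DKO libraries with TPA and, with the exception of USP18, in MOLM-13 SKO libraries, and fewer of them rose in the other 6 comparisons of knockout-labelled with sgControl libraries. In untreated U937 SKO 6 rose and 3 were not called, where 61.9% of all genes tested were called, 30.7% higher and 31.2% lower. In U937 DKO 7 rose and 2 were not called (67.7% of all genes called, 33.2% higher and 34.5% lower). With TPA, 6 rose and 3 were not called in SKO (50.4% of all genes called, 25.8% higher and 24.6% lower). All 9 rose in DKO with TPA (70.6% of all genes called, 34.1% higher and 36.5% lower). In THP-1 SKO 2 rose, 3 fell and 4 were not called (43.5% of all genes called, 20.6% higher and 22.8% lower). In THP-1 DKO 5 rose, 2 fell and 2 were not called (65.6% of all genes called, 31.9% higher and 33.7% lower). In MOLM-13 SKO 8 rose and 1 fell (64.0% of all genes called, 31.8% higher and 32.2% lower). In OCI-AML-3 DKO 2 rose, 3 fell and 4 were not called (49.9% of all genes called, 24.3% higher and 25.6% lower). Counted in either direction, the share of the 9 called was near that of all genes in untreated U937 SKO and OCI-AML-3 DKO. It was little above that of all genes in untreated U937 DKO and both THP-1 comparisons, and with only 9 genes such shares are coarse. The median log2 fold change of the 9 genes was 2.13 in U937 DKO with TPA, where that of all genes was -0.05, and 0.94 in MOLM-13 SKO, where that of all genes was 0.02. The THP-1 SKO median was -0.24, beside 0.01 for all genes. Comparisons within a line share the sgControl libraries, so SKO and DKO values stand side by side and are not independent.

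**Figure D1:**
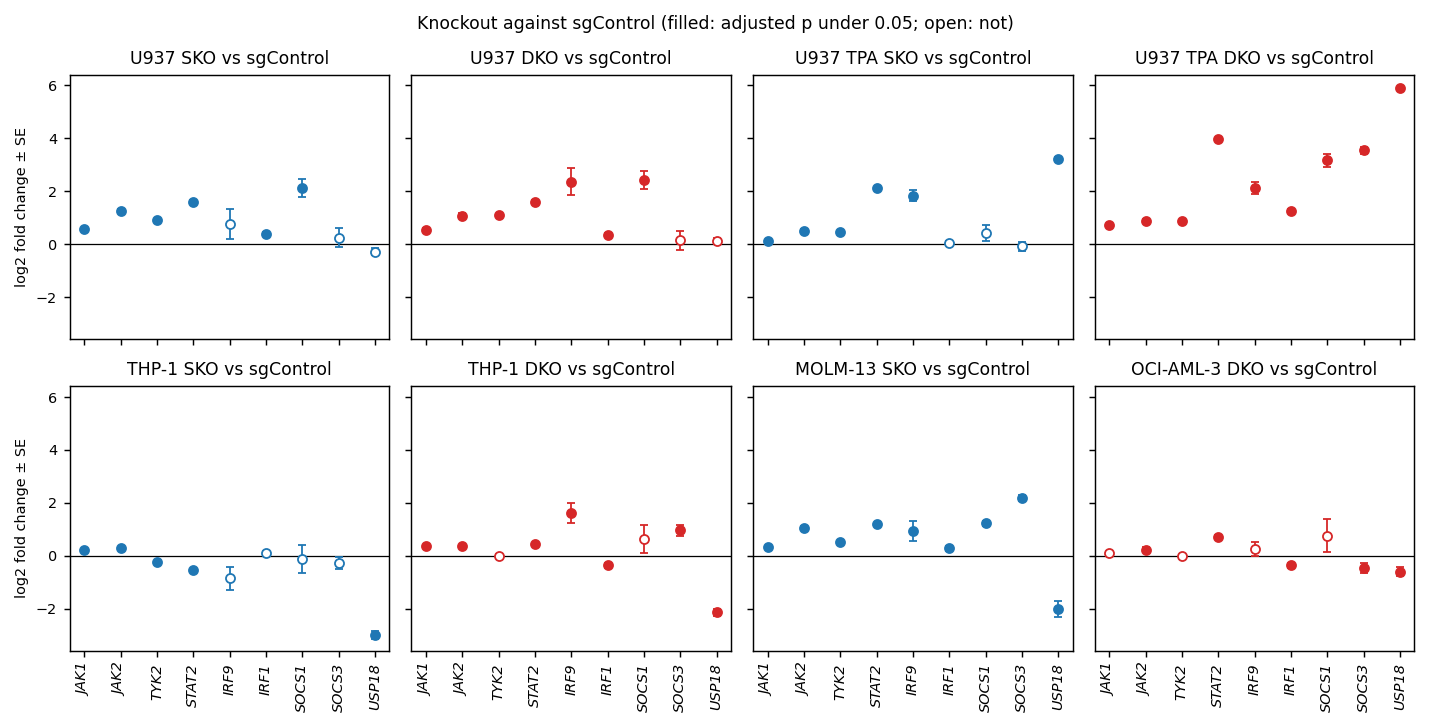
Log2 fold change (y axis, error bars are SE derived from the test statistic) of each of the 9 genes (x axis) in the 8 comparisons of knockout-labelled with sgControl libraries, with filled points for adjusted p under 0.05. U937 DKO with TPA is the panel in which all 9 points are filled above 0, and USP18 is the lowest point in both THP-1 panels, in MOLM-13 and in OCI-AML-3.

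Of the kinases, JAK2 rose in all 8 comparisons of knockout-labelled libraries with sgControl. JAK2 (ENSG00000096968, chr9:4984390-5129948), which pairs with JAK1 at the gamma interferon receptor and serves many cytokine receptors alone, had 9.41, 10.5 and 10.0 CPM in U937 sgControl. The SKO libraries had 25.2, 23.3 and 22.8 CPM and the DKO libraries 22.3, 21.3 and 20.2 CPM. Every knockout library lay above every control library, with log2 fold changes of 1.25 ± 0.08 (SE, adjusted p = 3.7e-14) and 1.09 ± 0.08 (SE, adjusted p = 7.4e-13). DKO and SKO did not differ by the test (-0.16 ± 0.07 SE, adjusted p = 0.069), although the groups did not overlap, and without DKO replicate 1 the difference was -0.20 (adjusted p = 0.047). In MOLM-13 JAK2 went from 28.1 and 29 CPM to 55.7 and 61.5 CPM, a log2 fold change of 1.05 ± 0.06 (SE, adjusted p = 1.1e-16). THP-1 had the highest JAK2 levels of the 4 lines, with 66.3, 73.1 and 70.8 CPM in sgControl, 84.2, 86.5 and 87.3 CPM in SKO and 82.5, 84.9 and 86.0 CPM in DKO. The THP-1 control libraries lay below both knockout groups, by 0.30 ± 0.05 (SE, adjusted p = 3.8e-06) in SKO and 0.37 ± 0.05 (SE, adjusted p = 5.8e-08) in DKO. In OCI-AML-3 the change was 0.23 ± 0.09 (SE, adjusted p = 0.028), and this call was lost without sgControl replicate 1 (adjusted p = 0.13), sgControl replicate 2 (adjusted p = 0.2) or DKO replicate 1, where the value was 0.12 (adjusted p = 0.23).

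JAK1 (ENSG00000162434, chr1:64833229-65067754) is shared by type I, gamma and many cytokine receptors and varied 3.93-fold between its highest and lowest group means, from 90.3 CPM in MOLM-13 sgControl to 354 CPM in U937 DKO with TPA. In untreated U937 it had 127, 137 and 135 CPM in sgControl, 198, 203 and 199 CPM in SKO and 194, 199.7 and 196 CPM in DKO. Both knockout groups lay above the controls and overlapped each other, at 0.59 ± 0.04 (SE, adjusted p = 4.6e-14) and 0.56 ± 0.04 (SE, adjusted p = 9.2e-14). With TPA the control libraries were already at 212, 219.5 and 217 CPM, the SKO libraries at 231, 239 and 230.5 CPM and the DKO libraries at 337, 374 and 352 CPM. The SKO step was 0.12 ± 0.04 (SE, adjusted p = 0.0077) and the DKO step 0.72 ± 0.04 (SE, adjusted p = 2.5e-16), and none of these 3 groups overlapped. JAK1 rose in THP-1 SKO (0.21), THP-1 DKO (0.36) and MOLM-13 SKO (0.32), and in OCI-AML-3 DKO it was 0.10 ± 0.06 (SE, adjusted p = 0.14), not called.

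TYK2 (ENSG00000105397, chr19:10350529-10380572), the partner of JAK1 at the type I interferon receptor, showed its lowest level in U937 sgControl, at 63.4, 63.4 and 63.5 CPM. The SKO libraries had 126, 119 and 119 CPM and the DKO libraries 138, 138 and 136 CPM. All knockout libraries lay above the controls by 0.93 ± 0.04 (SE, adjusted p = 1.0e-17) in SKO and 1.11 ± 0.04 (SE, adjusted p = 1.1e-19) in DKO, and the DKO group lay above SKO by 0.18 ± 0.04 (SE, adjusted p = 4.1e-04). With TPA it rose in SKO (0.45 ± 0.04 SE, adjusted p = 7.5e-10) and DKO (0.89 ± 0.04 SE, adjusted p = 9.5e-17). In MOLM-13 it had 199 and 197 CPM in sgControl and 277 and 282 CPM in SKO, the highest levels of the series (0.51 ± 0.03 SE, adjusted p = 7.5e-16). In THP-1 it fell in SKO (-0.24 ± 0.05 SE, adjusted p = 2.7e-04) and was 0.01 ± 0.05 (SE, adjusted p = 0.9) in DKO. In OCI-AML-3 it was -0.01 ± 0.06 (SE, adjusted p = 0.85). Neighbouring genes moved the same way in U937: the median log2 fold change of 329 genes in the same 20 Mb stretch of chromosome 19 was 0.37 in SKO and 0.44 in DKO, and with TPA 0.40 and 0.38 over 333 genes. Over all bins the medians were -0.01 and -0.04 without TPA and -0.01 and -0.06 with it, and the part of the neighbourhood in the TYK2 result was not tested. For the other 8 genes, the neighbourhood's median differed from that of all genes by -0.32 to 0.16 over the 8 knockout comparisons.

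STAT2 (ENSG00000170581, chr12:56341597-56360167), the ISGF3 subunit that carries the activation domain, rose in 7 of the 8 comparisons with sgControl and fell in THP-1 SKO. In untreated U937 it had 13.2, 15 and 16.1 CPM in sgControl, 42.8, 46.9 and 43.8 CPM in SKO and 44.6, 42.6 and 46.3 CPM in DKO. Every knockout library had more than 2 times the level of every control library, and the knockout groups overlapped. The log2 fold change was 1.59 ± 0.07 (SE, adjusted p = 7.3e-18) in SKO and 1.59 ± 0.07 (SE, adjusted p = 5.5e-18) in DKO, and DKO against SKO gave 0.00 ± 0.06 (SE, adjusted p = 0.99). With TPA the 2 knockout groups came apart. The control libraries had 29.8, 28.2 and 30.4 CPM, the SKO libraries 127, 132 and 127 CPM and the DKO libraries 429, 483 and 464 CPM. The groups did not overlap, with log2 fold changes of 2.13 ± 0.04 (SE, adjusted p = 4.5e-24) in SKO, 3.97 ± 0.05 (SE, adjusted p = 1.1e-30) in DKO and 1.84 ± 0.04 (SE, adjusted p = 5.0e-24) between them. The DKO effect was larger with TPA than without by 2.4 ± 0.08 (SE, adjusted p = 5.6e-24), and the SKO effect by 0.55 ± 0.08 (SE, adjusted p = 5.8e-07).

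The other lines differed in direction for STAT2. THP-1 had 72.8, 70.7 and 68.3 CPM in sgControl, 48.7, 50.2 and 45.6 CPM in SKO and 94.5, 83.5 and 88.6 CPM in DKO. SKO lay below and DKO above the control libraries without overlap, at -0.54 ± 0.05 (SE, adjusted p = 4.9e-10) and 0.44 ± 0.05 (SE, adjusted p = 1.3e-08). The SKO effect was higher in U937 than in THP-1 by 2.15 ± 0.09 (SE, adjusted p = 5.3e-21), and the DKO effect by 1.2 ± 0.09 (SE, adjusted p = 4.5e-14). In MOLM-13 STAT2 went from 51.9 and 54.2 CPM to 121 and 120.0 CPM (1.2 ± 0.04 SE, adjusted p = 1.1e-21), and in OCI-AML-3 from 27.4 and 30.3 CPM to 45.3 and 48.9 CPM (0.72 ± 0.07 SE, adjusted p = 1.2e-11). Neither line's groups overlapped. The TPA-treated U937 DKO group was 31.1 times the lowest group mean, that of U937 sgControl.

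**Figure D2:**
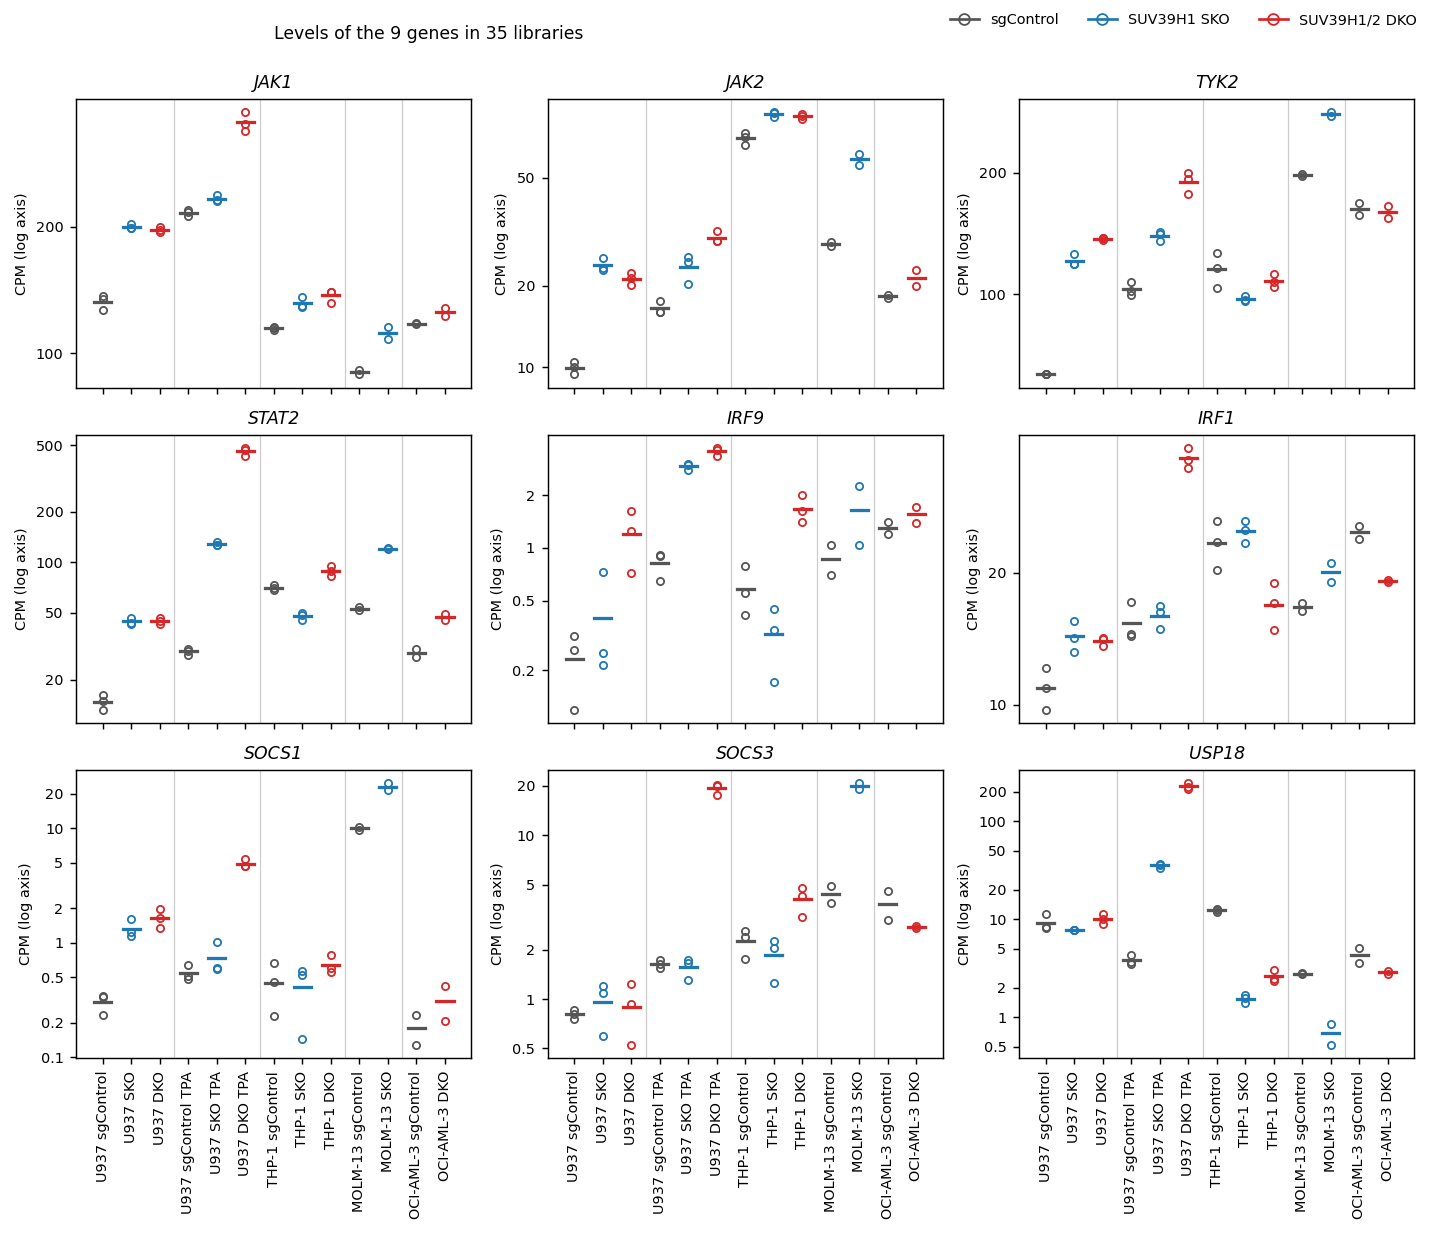
CPM on a log axis (y axis) of the 9 genes in the 13 groups (x axis), with 1 open point per library and a bar at the group mean, grey for sgControl, blue for SKO and red for DKO. STAT2, USP18, SOCS3 and SOCS1 reach 459, 227, 19.3 and 4.92 CPM in U937 DKO with TPA, while JAK2 and TYK2 are highest in THP-1 SKO and MOLM-13 SKO.

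IRF9, the DNA-contacting subunit of ISGF3, was followed through few reads. In untreated U937 the reads were 5, 11 and 11 in sgControl, 10, 8 and 24 in SKO and 44, 27 and 56 in DKO. The SKO group overlapped the controls and the DKO group did not. In CPM the groups were 0.231 ± 0.101 (SD, n = 3), 0.398 ± 0.288 (SD, n = 3) and 1.2 ± 0.455 (SD, n = 3), with log2 fold changes of 0.76 ± 0.56 (SE, adjusted p = 0.25) in SKO and 2.37 ± 0.51 (SE, adjusted p = 1.6e-04) in DKO. DKO exceeded SKO by 1.61 ± 0.48 (SE, adjusted p = 0.0064), and this was lost without DKO replicate 3 (1.33, adjusted p = 0.055). With TPA the reads were 27, 39 and 34 in sgControl, 113, 113 and 129 in SKO and 126, 120 and 114 in DKO. Both knockout groups lay above the controls, by 1.84 ± 0.21 (SE, adjusted p = 3.5e-08) and 2.13 ± 0.21 (SE, adjusted p = 8.7e-10), and the test did not separate them (0.29 ± 0.19 SE, adjusted p = 0.18). In THP-1 the reads were 22, 29 and 38 in sgControl, 9, 26 and 19 in SKO and 88, 59 and 56 in DKO, with -0.85 ± 0.42 (SE, adjusted p = 0.11) in SKO, not called, and 1.62 ± 0.39 (SE, adjusted p = 5.3e-04) in DKO. In MOLM-13 the SKO replicates differed, with 2.25 and 1.04 CPM against 1.03 and 0.703 CPM in sgControl. The call there (0.94 ± 0.36 SE, adjusted p = 0.022) was lost without SKO replicate 1 (0.28, adjusted p = 0.63), without sgControl replicate 2 (0.66, adjusted p = 0.13) and with DESeq2 (adjusted p = 0.086). In OCI-AML-3 it was 0.27 ± 0.27 (SE, adjusted p = 0.43).

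IRF1, a transcription factor of the gamma interferon response, moved over the narrowest range, 3.33-fold between U937 sgControl and U937 DKO with TPA. In untreated U937 it had 12.1, 9.74 and 10.9 CPM in sgControl, 15.5, 13.2 and 14.2 CPM in SKO and 14.2, 13.6 and 14.1 CPM in DKO. Both knockout groups lay above the controls, by 0.39 ± 0.09 (SE, adjusted p = 6.7e-04) and 0.35 ± 0.09 (SE, adjusted p = 0.0016). With TPA the sgControl libraries had 17.1, 14.5 and 14.4 CPM, the SKO libraries 16.3, 14.9 and 16.8 CPM and the DKO libraries 34.6, 36.1 and 38.5 CPM. SKO overlapped the controls (0.06 ± 0.08 SE, adjusted p = 0.54), whereas every DKO library had more than 2 times the level of every control library (1.26 ± 0.08 SE, adjusted p = 4.5e-14). In THP-1 IRF1 was 0.10 ± 0.08 (SE, adjusted p = 0.38) in SKO and fell in DKO (-0.36 ± 0.09 SE, adjusted p = 7.0e-04). In MOLM-13 it rose by 0.28 ± 0.08 (SE, adjusted p = 0.0048), lost without SKO replicate 1 (0.19, adjusted p = 0.081). In OCI-AML-3 it fell, from 23.8 and 25.5 to 19.1 and 19.2 CPM (-0.36 ± 0.09 SE, adjusted p = 4.7e-04), and the adjusted p was 0.054 without either DKO replicate.

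SOCS1 (ENSG00000185338, chr16:11254417-11256204), whose promoter holds the GAAAGAGAAA string printed above and whose product blocks JAK kinase activity, rose in untreated U937, in U937 DKO with TPA and in MOLM-13. The untreated U937 libraries had 0.333, 0.236 and 0.343 CPM (14, 10 and 12 reads) in sgControl, 1.60, 1.23 and 1.16 CPM in SKO and 1.65, 1.34 and 1.98 CPM in DKO. The knockout groups lay above the controls and overlapped each other, with log2 fold changes of 2.12 ± 0.34 (SE, adjusted p = 4.2e-06) and 2.43 ± 0.34 (SE, adjusted p = 3.1e-07). With TPA the levels were 0.482, 0.515 and 0.637 CPM in sgControl, 0.594, 1.01 and 0.604 CPM in SKO and 5.41, 4.68 and 4.66 CPM in DKO. DKO stood apart (3.18 ± 0.25 SE, adjusted p = 9.6e-12), while SKO overlapped the controls (0.43 ± 0.29 SE, adjusted p = 0.23). The SKO effect with TPA, less that without, was -1.68 ± 0.44 (SE, adjusted p = 0.0023). MOLM-13 had 10.2 and 9.71 CPM in sgControl and 21.4 and 24.8 CPM in SKO (1.23 ± 0.09 SE, adjusted p = 4.2e-13). The MOLM-13 SKO mean was 127 times the lowest group mean, that of OCI-AML-3 sgControl, whose libraries had 11 and 6 reads. In THP-1 it was -0.11 ± 0.53 (SE, adjusted p = 0.89) in SKO and 0.63 ± 0.53 (SE, adjusted p = 0.3) in DKO, and in OCI-AML-3 0.77 ± 0.63 (SE, adjusted p = 0.32), none of them called, and the groups overlapped.

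SOCS3 (ENSG00000184557, chr17:78356778-78360077), which restrains signalling of IL-6 family and related receptors, had its highest levels in MOLM-13 SKO and in U937 DKO with TPA. In U937 with TPA it had 1.74, 1.55 and 1.65 CPM in sgControl, 1.73, 1.65 and 1.30 CPM in SKO and 17.6, 20.2 and 20.1 CPM in DKO. SKO overlapped the controls (-0.07 ± 0.17 SE, adjusted p = 0.76), and DKO was 11.8-fold higher (3.56 ± 0.13 SE, adjusted p = 3.9e-19). Without TPA the U937 groups overlapped, with 0.25 ± 0.36 (SE, adjusted p = 0.57) in SKO and 0.16 ± 0.36 (SE, adjusted p = 0.72) in DKO, and the DKO effect was larger with TPA by 3.41 ± 0.33 (SE, adjusted p = 3.3e-11). MOLM-13 went from 3.86 and 4.86 CPM to 19 and 20.8 CPM (2.19 ± 0.11 SE, adjusted p = 4.0e-17). In THP-1 SOCS3 was -0.27 ± 0.23 (SE, adjusted p = 0.37) in SKO and rose in DKO (0.96 ± 0.22 SE, adjusted p = 3.6e-04). In OCI-AML-3 it had 4.54 and 3.02 CPM in sgControl and 2.7 and 2.79 CPM in DKO. That fall (-0.45 ± 0.19 SE, adjusted p = 0.045) was not called without sgControl replicate 1 (-0.14, adjusted p = 0.7), without DKO replicate 1 (adjusted p = 0.37) or replicate 2 (adjusted p = 0.34), or with DESeq2 (adjusted p = 0.17), and was -0.72 without sgControl replicate 2.

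USP18, an ISG15 protease and brake on the type I receptor, spanned the widest range, 329-fold between the means of U937 DKO with TPA and MOLM-13 SKO. With TPA, U937 had 4.29, 3.54 and 3.66 CPM in sgControl, 36.2, 36.8 and 33.6 CPM in SKO and 212, 222 and 246 CPM in DKO. The groups were far apart, with log2 fold changes of 3.21 ± 0.08 (SE, adjusted p = 1.7e-22) in SKO, 5.89 ± 0.07 (SE, adjusted p = 5.0e-30) in DKO and 2.68 ± 0.05 (SE, adjusted p = 1.0e-24) between them. Without TPA the sgControl libraries had 11.2, 8.40 and 8.25 CPM, the SKO libraries 7.71, 7.80 and 7.72 CPM and the DKO libraries 8.89, 11.3 and 10.2 CPM. SKO lay just below the controls and DKO overlapped them, at -0.27 ± 0.12 (SE, adjusted p = 0.051) and 0.12 ± 0.12 (SE, adjusted p = 0.37), neither called. Each of these depended on a library: SKO was called lower without sgControl replicate 2 (-0.34, adjusted p = 0.023) or replicate 3 (-0.35, adjusted p = 0.023), and DKO was called higher without sgControl replicate 1 (0.28, adjusted p = 0.038). DKO exceeded SKO by 0.39 ± 0.12 (SE, adjusted p = 0.0077), which was not called without DKO replicate 2 (0.30, adjusted p = 0.065). The effect of TPA on the SKO difference was 3.50 ± 0.14 (SE, adjusted p = 6.9e-21) and on the DKO difference 5.79 ± 0.14 (SE, adjusted p = 1.4e-28). USP41, its copy, had means of 2.82, 2.4 and 2.34 CPM in the 3 TPA groups. Over all 35 libraries USP41 had 3 to 324 reads and USP18 21 to 8328. The part of the copy in the USP18 levels was not tested, and untreated groups had far less USP18 than the TPA-treated DKO group.

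In the other lines USP18 fell. THP-1 had 12.9, 11.8 and 12.6 CPM in sgControl, 1.56, 1.42 and 1.70 CPM in SKO and 3.06, 2.37 and 2.45 CPM in DKO. Both knockout groups lay below every control library, at -2.98 ± 0.14 (SE, adjusted p = 6.1e-17) and -2.13 ± 0.14 (SE, adjusted p = 3.5e-14), and DKO stood above SKO by 0.85 ± 0.16 (SE, adjusted p = 3.6e-05). MOLM-13 had 2.75 and 2.83 CPM in sgControl and 0.856 and 0.522 CPM in SKO (-2.01 ± 0.29 SE, adjusted p = 4.2e-07), where the other 8 genes rose. OCI-AML-3 had 5.11 and 3.63 CPM in sgControl and 2.99 and 2.79 CPM in DKO. The fall (-0.59 ± 0.18 SE, adjusted p = 0.0053) was lost without sgControl replicate 1 (-0.33, adjusted p = 0.26), DKO replicate 1 (adjusted p = 0.18) or DKO replicate 2 (adjusted p = 0.23). The effect was higher in U937 than in THP-1 by 2.73 ± 0.19 (SE, adjusted p = 1.3e-14) for SKO and 2.29 ± 0.19 (SE, adjusted p = 4.7e-13) for DKO. STAT2 and USP18 moved apart in several of these comparisons: in MOLM-13 SKO STAT2 rose by 1.2 as USP18 was at -2.01, and in THP-1 DKO they were at 0.44 and -2.13. Over the 13 group means their Pearson r on log2 CPM was 0.49 and Spearman's rho 0.08, a description over groups that share lines.

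**Figure D3:**
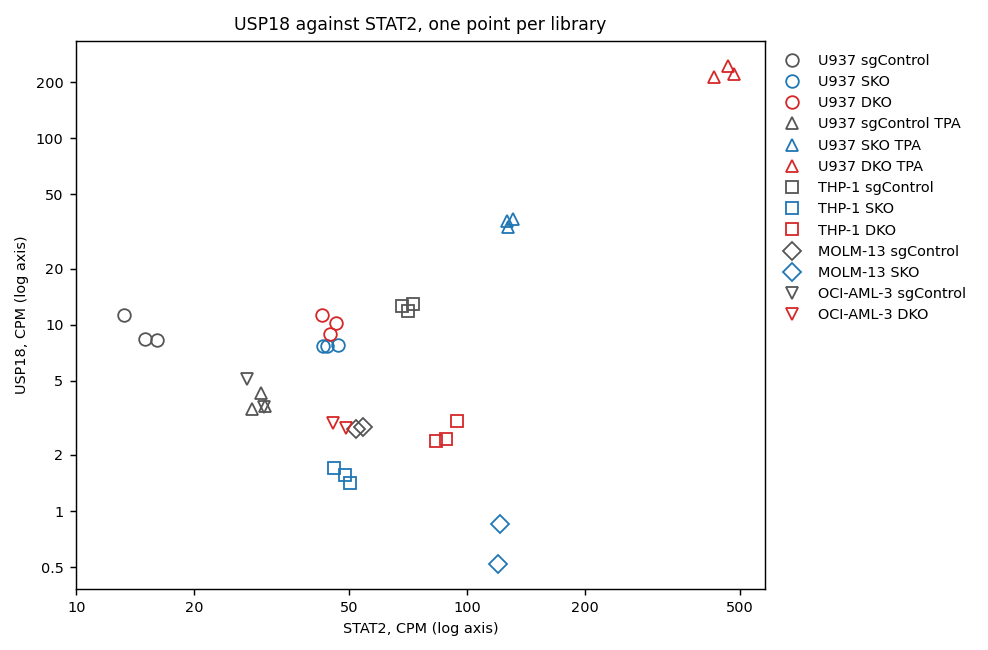
USP18 (y axis) against STAT2 (x axis) in CPM on log axes, 1 point per library, with shapes for line and TPA and colours for the label. The U937 TPA groups run from 29.5 and 3.83 CPM in sgControl to 459 and 227 CPM in DKO, while the MOLM-13 SKO libraries sit at the bottom, with USP18 at 0.856 and 0.522 CPM and STAT2 at 121 and 120.0 CPM.

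TPA itself was followed in U937 with sgControl, SKO and DKO libraries in 1 fit. In sgControl 8 genes rose and USP18 fell (-1.27 ± 0.11 SE, adjusted p = 1.8e-12), where 67.7% of all genes tested were called, 34.6% higher and 33.2% lower. In SKO 6 rose, SOCS1 fell (-0.83 ± 0.27 SE, adjusted p = 0.0085) and JAK2 and IRF1 were not called (62.9% of all genes called, 31.5% higher and 31.4% lower). In DKO all 9 rose (73.1% of all genes called, 36.9% higher and 36.2% lower). The steps in DKO were largest for USP18 (4.52 ± 0.08 SE, adjusted p = 2.2e-33), SOCS3 (4.45 ± 0.20 SE, adjusted p = 3.6e-21) and STAT2 (3.41 ± 0.05 SE, adjusted p = 7.7e-36), and those of the kinases were 0.89 for JAK1, 0.54 for JAK2 and 0.51 for TYK2. The rise of SOCS1 in sgControl (0.85 ± 0.35 SE, adjusted p = 0.03) was not called without untreated replicate 2 (0.69, adjusted p = 0.12), without TPA replicate 3 (0.73, adjusted p = 0.098), without the expression filter (adjusted p = 0.11) or in either other choice of libraries in the fit (adjusted p = 0.07 in each). In SKO, without untreated replicate 1, the fall of SOCS1 was -0.67 (adjusted p = 0.062) and the rise of SOCS3, 0.73 with all libraries, was 0.47 (adjusted p = 0.092).

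The knockout effects with TPA were set against those without. For SKO, STAT2 and USP18 had larger effects with TPA and JAK1, JAK2, TYK2, IRF1 and SOCS1 lower ones, so 7 of 9 were called (37.7% of all genes called, 19.6% higher and 18.1% lower). For DKO, JAK1, STAT2, IRF1, SOCS3 and USP18 had larger effects and TYK2 a lower one (49.6% of all genes called, 21.7% higher and 27.8% lower). Against THP-1, the SKO effect in U937 was higher for 6 genes (JAK1, JAK2, TYK2, STAT2, SOCS1 and USP18), where 46.9% of all genes tested were called, 24.1% higher and 22.7% lower. The DKO effect was higher for 7 (the same and IRF1; 54.4% of all genes called, 29.7% higher and 24.7% lower). In DKO against SKO, 3 genes rose in untreated U937 (TYK2, IRF9 and USP18; 49.0% of all genes called, 24.1% higher and 24.9% lower) and 8 with TPA (all but IRF9; 63.7% of all genes called, 31.3% higher and 32.4% lower). In THP-1 6 rose and IRF1 fell (-0.46 ± 0.09 SE, adjusted p = 5.3e-05), where 53.8% of all genes tested were called, 25.3% higher and 28.5% lower.

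On a scale of CPM per kilobase of exon, the order of the 9 genes differed between groups. The length used is that of all annotated exons of a row, from 1788 bases for SOCS1 to 12620 for JAK1. It can exceed the length of the transcripts present, so levels of different genes are compared only roughly. In U937 sgControl JAK1 (10.5) and TYK2 (9.51) were highest, followed by USP18 (5.00) and STAT2 (2.38). In U937 DKO with TPA USP18 (122) and STAT2 (74.0) led, above TYK2 (28.5) and JAK1 (28.1). In MOLM-13 SKO TYK2 led with 41.9, and SOCS1 reached 12.9, above JAK1 at 8.86, while USP18 was lowest at 0.371. IRF9, with the counting limit above, was between 0.0644 and 0.998 over the 13 groups.

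Across the 13 groups, neighbours in the order of levels often overlapped. For STAT2 the top 6 groups (U937 DKO and SKO with TPA, MOLM-13 SKO, THP-1 DKO, THP-1 sgControl and MOLM-13 sgControl) each stood clear of the next, while THP-1 SKO, OCI-AML-3 DKO, U937 DKO and U937 SKO, at 44.5 to 48.1 CPM, overlapped in turn. For USP18 U937 DKO with TPA, U937 SKO with TPA and THP-1 sgControl stood clear of the next group, and THP-1 SKO and MOLM-13 SKO, the lowest, stood clear of each other and of the rest. For SOCS1 the 2 MOLM-13 groups and U937 DKO with TPA stood clear, and the 6 groups from U937 SKO with TPA down to OCI-AML-3 DKO overlapped their neighbours. For SOCS3, MOLM-13 SKO and U937 DKO with TPA overlapped each other (19 and 20.8 against 17.6, 20.2 and 20.1 CPM) and stood clear of the rest. JAK2 was highest in the 3 THP-1 groups, followed by MOLM-13 SKO, and below these the groups of U937, MOLM-13 and OCI-AML-3 alternated. For IRF9, from THP-1 DKO down each group overlapped the next.

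The genes listed as ISGF3 targets had medians further from 0 than the 9 genes in U937 DKO, in U937 with TPA and in THP-1. Their medians were nearer to 0 in U937 SKO, MOLM-13 and OCI-AML-3. In THP-1 DKO the signs were opposite, with -1.51 for the targets and 0.37 for the 9 genes. Of 30 genes listed as ISGF3 targets, such as MX1, IFIT1 and OAS2, 15 of 25 tested rose and 1 fell in U937 SKO, with a median log2 fold change of 0.53, and 21 rose and 2 fell in DKO (median 1.67). With TPA 28 of 29 rose in SKO (median 3.11) and all 29 in DKO (median 5.57). RSAD2, an antiviral enzyme, went from 1.00 ± 0.321 to 771 ± 33.5 CPM (mean ± SD) in DKO with TPA, 9.57 ± 0.08 (SE, adjusted p = 9.9e-34). In THP-1 SKO all 30 fell (median -2.69), with IFIT1, which binds viral RNA caps, going from 19.1 ± 1.08 to 0.233 ± 0.173 CPM (mean ± SD), and in THP-1 DKO 28 fell and 1 rose (median -1.51). In MOLM-13 SKO 17 of 24 rose and 1 fell (median 0.64), and in OCI-AML-3 DKO 6 of 26 rose and 7 fell (median -0.08). The medians of all genes lay between -0.05 and 0.05 in these comparisons. The list was drawn up with earlier results of these data known, as all lists here were. Over all genes tested, 61.9% were called in U937 SKO, 67.7% in U937 DKO, and with TPA 50.4% in SKO and 70.6% in DKO. The share was 43.5% in THP-1 SKO, 65.6% in THP-1 DKO, 64.0% in MOLM-13 SKO and 49.9% in OCI-AML-3 DKO. Counts called in this list and those below stand beside these shares.

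Genes listed under IRF1 and gamma interferon followed in part. In U937 DKO with TPA 15 of 16 rose and none fell by edgeR (median 3.20), among them GBP1, a guanylate-binding protein (from 0.112 ± 0.122 to 193 ± 5.91 CPM, mean ± SD), and the chemokine CXCL10 (5.76 ± 0.06 SE, adjusted p = 4.0e-31). In MOLM-13 SKO all 10 tested rose (median 0.74), led by CIITA, the regulator of MHC class II genes (3.09 ± 0.14 SE, adjusted p = 1.7e-18). In THP-1 11 of 14 fell in SKO and 9 in DKO, where GBP2 rose (3.45 ± 0.14 SE, adjusted p = 4.1e-19). In untreated U937 6 rose and 3 fell in SKO and 8 rose and 3 fell in DKO, of 13, with GBP5 lower in both (-2.76 and -2.49). With TPA 13 rose and 1 fell in SKO, and in OCI-AML-3 DKO 3 of 12 rose and 4 fell.

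**Figure D4:**
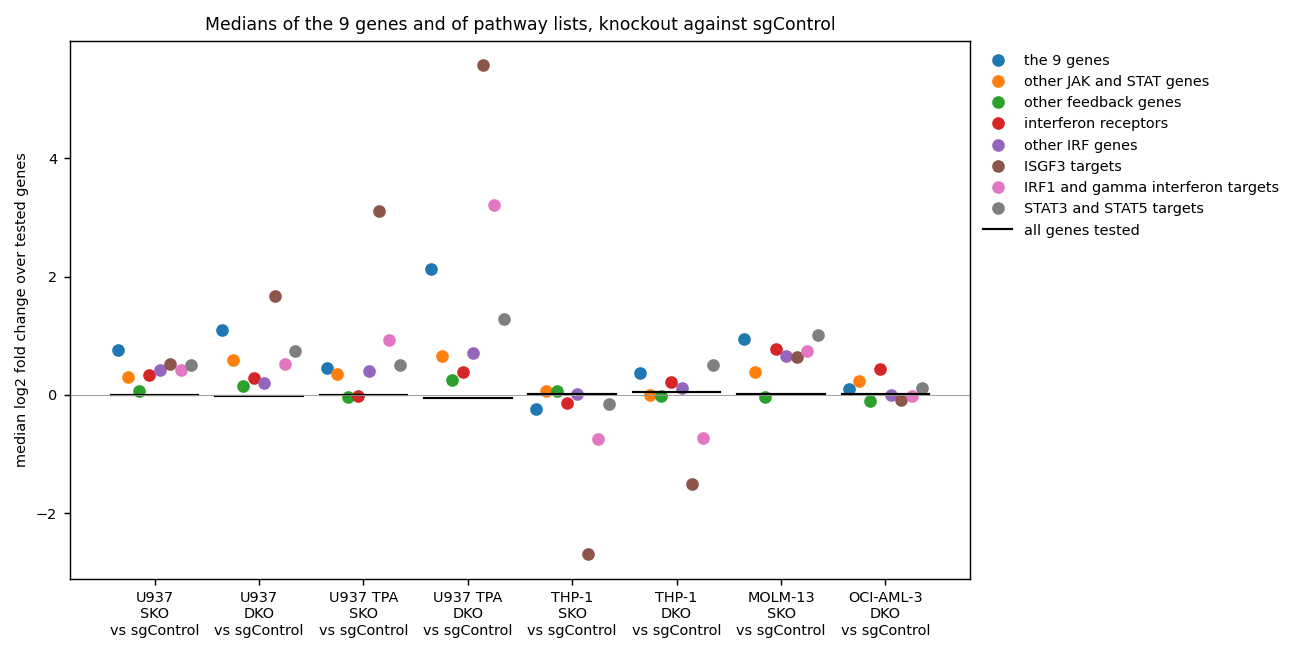
Median log2 fold change (y axis) of the tested genes of the 9-gene set and of 7 pathway lists (coloured points) in 8 comparisons of knockout-labelled with sgControl libraries (x axis), with a black line at the median of all genes tested. The ISGF3 targets reach 5.57 in U937 DKO with TPA and -2.69 in THP-1 SKO, further from 0 than the 9 genes at 2.13 and -0.24.

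The remaining JAK and STAT genes rose in untreated U937, all 6 tested in SKO (median 0.30) and in DKO (median 0.59), STAT3, which serves the IL-6 family, by 0.58 and 0.73. With TPA 5 of 6 rose in SKO, and in DKO 5 rose and 1 fell. In THP-1 3 rose and 1 fell in SKO, in MOLM-13 SKO 5 of 6 rose, and in OCI-AML-3 DKO 3 of 5 did. STAT6, the factor of IL-4 signalling, rose in THP-1 DKO (0.91) and MOLM-13 SKO (0.88). Other feedback genes were mixed, with 7 of 16 higher and 4 lower in U937 SKO (61.9% of all genes called) and 10 and 2 in U937 DKO (67.7%). With TPA the counts were 5 and 4 in SKO (50.4%) and 9 and 4 in DKO (70.6%). In THP-1 5 rose and 3 fell in SKO (43.5%), and 4 rose and 6 fell in DKO (65.6%). In MOLM-13 SKO 5 rose and 4 fell (64.0%), and in OCI-AML-3 DKO 1 rose and 6 fell (49.9%). In most of these comparisons the share of feedback genes called was near that of all genes. ISG15, the modifier that USP18 removes, changed with it in direction in THP-1 SKO (-3.05) and DKO (-3.06) and with TPA (3.94 in SKO and 7.02 in DKO). In untreated U937 it rose by 1.00 and 1.97, where USP18 was not called, and in OCI-AML-3 DKO it rose by 1.09 as USP18 fell. CISH, a relative of the SOCS genes, rose in MOLM-13 SKO (1.5).

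Receptors and ligands differed from each other. Of the interferon receptor genes, 3 of 5 rose in U937 DKO with TPA (70.6% of all genes called), IFNGR1, the ligand-binding gamma chain, by 1.28. Without TPA 2 of 5 rose in U937 SKO (61.9% of all genes called) and 3 of 5 in DKO (67.7%). In U937 SKO with TPA 1 rose and 1 fell (50.4%). All 6 rose in MOLM-13 SKO (64.0% of all genes called) and 4 of 5 in OCI-AML-3 DKO (49.9%). In THP-1 SKO 2 of 5 fell (43.5% of all genes called) and in DKO 3 rose and 1 fell (65.6%). The ligand genes IFNB1, IFNL1 and IFNG were looked at after the values had been seen. IFNB1 had 2.33 to 3.18 CPM and IFNL1 2.45 to 3.18 CPM in the U937 DKO libraries with TPA, both were at 0 in the sgControl libraries with TPA, and IFNG was at 0 in all 9 libraries with TPA. In the other 12 groups the mean of IFNB1 was at most 0.0980 CPM and that of IFNL1 at most 0.0336 CPM. IRF7, an interferon-induced factor for interferon genes, rose in U937 (1.8 in SKO and 3.24 in DKO) and with TPA (2.93 and 4.84), and fell in THP-1 (-2.50 and -1.37). Of 5 other IRF genes tested in MOLM-13 SKO, 5 rose, IRF5 by 1.49.

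Targets of STAT3 and STAT5 were the last list. Its counts, and those of the markers, stand beside the shares of all genes called given with the ISGF3 targets. Of 10, 6 rose and 2 fell in U937 SKO, PIM1, a survival kinase, by 2.59 ± 0.04 (SE, adjusted p = 1.2e-28). In untreated U937 DKO and in U937 SKO with TPA 7 rose and 2 fell. In U937 DKO with TPA 8 rose and 1 fell, and in MOLM-13 SKO 8 rose and 2 fell, FOS by 3.69 and BCL6 by 2.20. In THP-1 4 rose and 4 fell in SKO (median -0.16), and 6 rose and 3 fell in DKO (median 0.50). In OCI-AML-3 DKO 4 of 9 rose and 3 fell (median 0.12), among them PIM1 (-1.73). Monocytic markers moved in the same comparisons: their summed level was 541 to 569 CPM in U937 sgControl libraries, 964 to 996 in SKO and 962 to 997 in DKO, and 1251 to 1324 in MOLM-13 sgControl against 8721 to 8874 in SKO. With TPA the sums were 1123 to 1148 CPM in sgControl, 889 to 927 in SKO and 1217 to 1275 in DKO. In THP-1 they were 923 to 1006 CPM in sgControl, 1136 to 1209 in SKO and 1315 to 1355 in DKO, and in OCI-AML-3 789 to 851 in sgControl and 1729 to 1742 in DKO. Of the monocytic markers tested, 7 of 8 rose and 1 fell in U937 SKO, and 8 of 8 rose in DKO. With TPA 7 of 10 rose and 2 fell in SKO, and 6 rose and 3 fell in DKO. In THP-1 5 of 10 rose and 2 fell in SKO, and 7 rose and 2 fell in DKO. In MOLM-13 SKO 9 of 9 rose, and in OCI-AML-3 DKO 5 of 10 rose and 1 fell. In untreated U937 DKO 4 of 5 T and NK markers fell, their sum being 155 to 172 CPM in sgControl, 202 to 206 in SKO and 140.4 to 157 in DKO. There 2 of 3 B markers fell, with sums of 27.7 to 31.0 CPM in sgControl, 14.1 to 15.3 in SKO and 9.89 to 10.9 in DKO. The part of these marker changes in the levels of the 9 genes was not tested.

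The genes whose levels ran most like each of the 9 over the 13 group means differed from gene to gene. USP18 was most like EIF2AK2, an interferon-induced kinase, CNNM4 and IFIT1, with Pearson r of 0.94, 0.94 and 0.93 on log2 CPM among 10892 genes compared. IRF9, with the limit of its few counted reads, was most like REC8 (r = 0.97). SOCS1 was most like CILP2 (0.95), DTX2 (0.93) and CISH (0.92), and SOCS3 like TMUB2 (0.91) and CFLAR (0.90). STAT2 was most like ZNF75D (0.93), JAK1 like FNIP2 (0.96), JAK2 like TDRD7 (0.96), TYK2 like ORAI3 (0.96) and IRF1 like SAV1 (0.90). Among the 9 themselves, r was highest for JAK1 with USP18 (0.77), TYK2 with SOCS3 (0.76) and STAT2 with IRF9 (0.74), and lowest for JAK2 with USP18 (-0.29). These values describe 13 means that share lines and tables and carry no test.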

How the data were processed

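The authors deposited raw whole-number read counts per gene in 2 tables. The submitters' processing notes name fastp 0.23.4, STAR 2.7.11b, Subread 2.0.6 and hg38. Per the file headers of the untreated U937 and THP-1 table, featureCounts 2.0.6 counted on GENCODE 38 gene names, with mates counted singly, without strand and without multi-mapping or overlapping reads; for the other table the command is not given in the sources used here.

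Tests used edgeR 4.0.16 under R 4.3.3 (TMM, the trimmed mean of M-values, its expression filter, quasi-likelihood test, Benjamini-Hochberg adjustment at 0.05) in 7 fits without covariates: each line or treatment alone (14915 genes in U937, 18585 in THP-1, 16246 in U937 with TPA, 15472 in MOLM-13, 16175 in OCI-AML-3), U937 with and without TPA (16989) and U937 with THP-1 (18715). Residual degrees of freedom were 6, 2 in MOLM-13 and OCI-AML-3, and 12 in the fits of 18 libraries. The SE printed with a fold change was derived from the test, as the absolute log2 fold change over the square root of its F statistic. The tests were checked on simulated data. Replicate pairs had a chi-square per degree of freedom of 2.97 to 11.7 over 31 pairs. Mates counted singly raise this value by themselves, so the excess over sampling noise was not sized. Neighbourhoods are 20 Mb bins and hold genes whose mean log2 CPM was 2 or more.

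The 9 genes and all lists were chosen with earlier results of these data known. The rule for named genes takes the 9 genes, up to 2 genes per list and comparison with the largest called change and a mean log2 CPM of at least 1, and the 3 genes most like each of the 9. The text names part of them. No deposited sample column was left unused. Alternatives were DESeq2 1.42.0 as the test, its size factors, no filter, a replicate block, other libraries in the fit, each library left out, and library-total scaling.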

Additional observations from a re-analysis of the deposited data

Results flagged for a closer look

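The values here are differences of 2 knockout effects in log2 units, tested in 1 fit of 18 libraries, and each had an edgeR adjusted p under 0.05. No group had 4 libraries or more, so single libraries were not examined for standing apart.

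The SKO effect in U937 with TPA, less that without, was 3.50 for USP18 and 0.55 for STAT2. It was -0.46 for JAK1, -0.73 for JAK2, -0.47 for TYK2, -0.31 for IRF1 (adjusted p = 0.048) and -1.68 for SOCS1. The IRF1 value missed the threshold under every alternative that changed the scaling, the test, the filter or the libraries in the fit, with adjusted p values of 0.061 to 0.13. It also missed it in 7 of 12 fits that left out 1 library: untreated sgControl replicate 2 (-0.22) or 3 (-0.30), untreated SKO replicate 1 (-0.24) or 3 (-0.31), TPA sgControl replicate 1 (-0.22), and TPA SKO replicate 1 (-0.32) or 2 (-0.25). The adjusted p reached 0.2, and the values of all 12 were -0.39 to -0.22.

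The DKO effect with TPA, less that without, was 5.79 for USP18, 3.41 for SOCS3, 2.4 for STAT2, 0.92 for IRF1, 0.18 for JAK1 and -0.20 for TYK2. With DESeq2's size factors the TYK2 value was -0.14 (adjusted p = 0.056), and with DESeq2's test -0.14 (adjusted p = 0.053).

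The SKO effect in U937, less that in THP-1, was 2.73 for USP18, 2.25 for SOCS1, 2.15 for STAT2, 1.18 for TYK2, 0.96 for JAK2 and 0.39 for JAK1. The DKO effect in U937, less that in THP-1, was 2.29 for USP18, 1.85 for SOCS1, 1.2 for STAT2, 1.15 for TYK2, 0.76 for JAK2, 0.76 for IRF1 and 0.24 for JAK1. The SOCS1 value was 1.5 (adjusted p = 0.052) without THP-1 sgControl replicate 3. The JAK1 value fell to 0.13 (adjusted p = 0.065) without U937 DKO replicate 2, and was 0.15 without U937 sgControl replicate 3 or U937 DKO replicate 3.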

How the results depend on the processing

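None of the log2 fold changes of the 9 genes reversed sign past its threshold in the alternatives run. The count of the 9 genes called moved by more than 1.5 times only in OCI-AML-3 DKO, from 5 to 3 with DESeq2's test and to 2 without the expression filter, and it was 1 to 4 with each library left out in turn. The 3 genes called in U937 DKO against SKO became 2 to 4. Genes called over all genes in OCI-AML-3 DKO were 8065, and 5236 and 5020 without DKO replicate 1 and 2. With the replicate block, 159 of 162 fold changes stayed on their side of the threshold. It lost SOCS3 in OCI-AML-3 DKO (-0.43, adjusted p = 0.051) and gained IRF1 in SKO for TPA (adjusted p = 0.049) and for U937 less THP-1 (adjusted p = 0.035). Same-numbered libraries deviated together by correlations of -0.05 to 0.06. The same number gave the best match in 25 of 45 pairs of U937 with THP-1, and in 15 of 45 of U937 with and without TPA. With 2 or 3 libraries per group, values this small neither show nor exclude a pairing by number. Size factors kept 159 results, DESeq2's test 155 and no filter 156 of 162. With each library left out, 1109 fold changes stayed on their side, 14 gained and 29 lost a call. Calls gained by leaving out 1 library were, among the differences of effects, IRF9 for SKO with TPA less without (1.83, adjusted p = 0.011, without U937 SKO replicate 3, from 1.10), and for U937 less THP-1 SOCS3 in DKO (-1.16, adjusted p = 0.03, without U937 DKO replicate 2), IRF1 in SKO (0.38 without U937 sgControl replicate 1 and 0.39 without THP-1 sgControl replicate 3) and IRF9 in SKO (1.82 to 1.93, without U937 SKO replicate 1 or 2, THP-1 sgControl replicate 1 or THP-1 SKO replicate 2). IRF1 with TPA in SKO (0.19) was called at 0.26 without untreated replicate 1 and 0.24 without TPA replicate 2. A library left alone in MOLM-13 or OCI-AML-3 is assumed to vary like the other group. A fit of all libraries is the main fit for U937 less THP-1 and was not repeated. A term for a library code in the untreated U937 headers, chosen after the data were seen, kept all 27 results it bore on. Scaling by library totals moved 47 of 117 group levels by more than their SD.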
